A study of Mus musculus with 5 samples.

Results

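Neutrophil granule and calprotectin genes were followed in CD11b-positive brain cells of 5xFAD mice with and without a Cd5l transgene. The set held 9 of the 56748 genes in the table, chosen by gene symbol: Camp, Ngp, Ltf, Lcn2, Mmp8, Mmp9, Retnlg, S100a8 and S100a9. RNA was sequenced from 5 mice aged 7 months, after the cerebellum had been removed. The first group was 5xFAD/Cd5l tg/wt (3 libraries, replicates 1, 2 and 3), which is 5xFAD plus a mouse Cd5l transgene under the PDGF-B promoter of human origin. These mice are called Cd5l-transgenic. The second was 5xFAD without that transgene (2 libraries, replicates 1 and 3). 5xFAD carries mutant human transgenes that drive amyloid plaque formation, so both groups had them. Wild-type mice were not analysed here, and the sources used here do not give sex, strain background or how the cells were isolated. As litters are not stated, p-values measure the spread between these mice only.

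Neutrophils build their granules in sequence as they mature in the bone marrow. Azurophil granules with myeloperoxidase and serine proteases are filled first, in promyelocytes. Secondary granules with lactoferrin, cathelicidin and lipocalin follow in myelocytes and metamyelocytes, and gelatinase granules come later still. Calprotectin, the S100A8 and S100A9 pair, fills the cytosol and acts as an alarmin once it is released. CD11b, the integrin on which the cells are defined, is carried by neutrophils and monocytes as well as by microglia.

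The libraries held 30798377 to 34794617 counts, so that 1 count was worth 0.0282 to 0.0339 CPM (counts scaled to library size with TMM factors, the trimmed mean of M values). Cd5l had 7230, 10680 and 6438 counts in Cd5l-transgenic replicates 1, 2 and 3, against 45 and 9 counts in 5xFAD replicates 1 and 3, which fits the labels. The cells were mainly microglia by their markers: 10 summed microglial genes stood at 24580 to 26540 CPM with the transgene and at 24330 to 25830 CPM in 5xFAD. Itgam, which encodes CD11b, lay between 305 and 363 CPM in all 5 libraries. Choroid plexus and ependymal markers stood apart in 5xFAD replicate 3 (2885 CPM), and oligodendrocyte markers in Cd5l-transgenic replicate 2 (4236 CPM).

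All 9 genes were measured in every library, with 58 to 1807 counts each, and all 9 were highest in Cd5l-transgenic replicate 1 and next highest in replicate 2. Cd5l-transgenic replicate 3 did not share this level: it lay between the 5xFAD libraries for 6 genes, below both for 1 and above both for 2. All transgenic libraries thus lay above both 5xFAD libraries in 2 of the 9 genes, beside 7.2% of all tested genes. Summed over the set, the level was 224, 173 and 83.8 CPM in Cd5l-transgenic replicates 1, 2 and 3, against 66.9 and 87.8 CPM in 5xFAD replicates 1 and 3. The groups overlapped in that sum, with means of 160 ± 71.1 CPM (SD, n = 3) and 77.4 ± 14.8 CPM (SD, n = 2) for Cd5l-transgenic and 5xFAD mice. In bulk RNA, a different number of neutrophils and a different amount of RNA per neutrophil cannot be told apart.

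No member passed the test between the genotypes. The edgeR quasi-likelihood test called 0 of the 9 higher and 0 lower at an adjusted p of 0.05, where it called 0% of the 17724 tested genes in either direction. At an unadjusted p under 0.05, 3 members were higher (Camp, Ngp and Ltf), beside 1.22% of all tested genes, and 0 were lower, beside 1.46%. DESeq2 also called 0 members, where it called 9 of the 17724 genes higher and 2 lower. The limma-voom test called 0 members and 0 genes. The log2 fold changes, Cd5l-transgenic minus 5xFAD, ran from 0.74 to 1.42 with a median of 1.05, while the median over all tested genes was -0.03 and 42.9% of them were above 0. No 95% interval of a member excluded a 2-fold higher level with the transgene, so the missing calls do not show equal levels. Even Cd5l, the gene of the transgene, was not called by edgeR. Its log2 fold change was 8.23 and its rank by p was 1, at an edgeR adjusted p of 0.765.

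**Figure D1:**
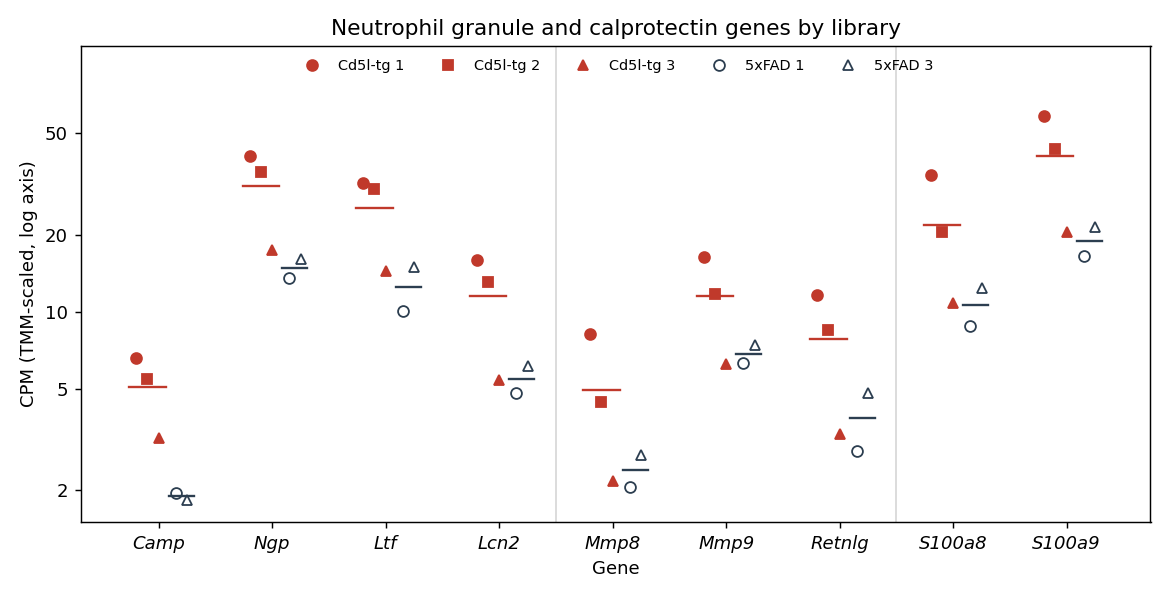
CPM of each of the 9 genes in the 5 libraries, on a log axis; filled red symbols are Cd5l-transgenic mice, open dark symbols are 5xFAD mice, and short lines are group means. Cd5l-transgenic replicates 1 and 2 lie above both 5xFAD libraries for all 9 genes, and replicate 3 does so for 2, Camp and Ngp.

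Among the secondary granule genes, Camp had the largest difference and the least overlap. Camp encodes the cathelicidin precursor from which the antimicrobial peptide CRAMP is cut (ENSMUSG00000038357, chromosome 9, 109676447 to 109678685, GRCm39). It stood at 6.62, 5.45 and 3.21 CPM in Cd5l-transgenic replicates 1, 2 and 3, against 1.96 and 1.83 CPM in 5xFAD replicates 1 and 3. Every transgenic library was above both 5xFAD libraries. The log2 fold change of Camp was 1.42 (SE 0.37, 95% interval 0.52 to 2.33), with an unadjusted p of 0.00847 and an edgeR adjusted p of 0.999. Its rank by p was 45 among the 17724 genes.

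Ngp was the other gene whose groups did not overlap. Ngp encodes neutrophilic granule protein, a relative of the cathelicidins (ENSMUSG00000032484, chromosome 9, 110248815 to 110252080, GRCm39). Its level was 40.8, 35.3 and 17.5 CPM in Cd5l-transgenic replicates 1, 2 and 3, against 13.6 and 16.1 CPM in 5xFAD replicates 1 and 3. The gap between Cd5l-transgenic replicate 3 and 5xFAD replicate 3 was small, while replicates 1 and 2 stood well apart. On the log2 scale Ngp differed by 1.07 (SE 0.38, 95% interval 0.11 to 2.04), with an unadjusted p of 0.0352 (edgeR adjusted p = 0.999).

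Ltf and Lcn2 encode the iron-withholding proteins of the same granules, and in both the groups overlapped. Ltf, lactoferrin, which binds iron directly (ENSMUSG00000032496, chromosome 9, 110848339 to 110871835), stood at 31.9, 30.4 and 14.5 CPM in Cd5l-transgenic replicates 1, 2 and 3, against 10.1 and 15.0 CPM in 5xFAD replicates 1 and 3. Lcn2, lipocalin 2, which captures bacterial siderophores (ENSMUSG00000026822, chromosome 2, 32274645 to 32278264), stood at 15.9, 13.1 and 5.41 CPM with the transgene, against 4.81 and 6.15 CPM in 5xFAD. In both genes the third transgenic library fell between the 5xFAD libraries. The log2 fold change was 1.03 for Ltf (SE 0.40) and 1.06 for Lcn2 (SE 0.47). Lcn2 is also made by reactive astrocytes. The 8 astrocyte markers had a summed level of 312 to 443.6 CPM with the transgene and 304.8 to 323.8 CPM in 5xFAD. That sum was highest in Cd5l-transgenic replicate 2. Gfap alone on that list was highest in replicate 1, as Lcn2 was. It stood at 168, 140 and 142 CPM in Cd5l-transgenic replicates 1, 2 and 3, against 155 and 116 CPM in 5xFAD replicates 1 and 3. All other astrocyte markers were highest in Cd5l-transgenic replicate 2 or in 5xFAD replicate 3. The part of astrocytes in the level of Lcn2 was not tested.

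Mmp8, Mmp9 and Retnlg, grouped here as later genes, had the same 2 high libraries. The grouping was assigned beforehand and was not tested in these cells. Mmp8, neutrophil collagenase (ENSMUSG00000005800, chromosome 9, 7558457 to 7568486), stood at 8.17, 4.45 and 2.18 CPM in Cd5l-transgenic replicates 1, 2 and 3, against 2.07 and 2.76 CPM in 5xFAD replicates 1 and 3. Retnlg, a resistin-like secreted protein used as a marker of mature neutrophils in mice (ENSMUSG00000022651, chromosome 16, 48692984 to 48694859), stood at 11.6, 8.46 and 3.33 CPM with the transgene, against 2.84 and 4.82 CPM in 5xFAD. For both, replicate 3 of the transgenic mice lay within the 5xFAD range. The log2 fold change was 1.03 for Mmp8 and 1.02 for Retnlg (SE 0.57 each).

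Mmp9 had the smallest difference of the 9. It encodes gelatinase B, the protease of gelatinase granules (ENSMUSG00000017737, chromosome 2, 164782700 to 164797770). Its level was 16.4, 11.7 and 6.26 CPM in Cd5l-transgenic replicates 1, 2 and 3, against 6.30 and 7.39 CPM in 5xFAD replicates 1 and 3. Here the third transgenic library was below both 5xFAD libraries. Its log2 fold change was 0.74 (SE 0.41). Part of these differences rested on 1 mouse: without Cd5l-transgenic replicate 1 the log2 fold change was 0.45 for Mmp8, 0.39 for Mmp9 and 0.62 for Retnlg.

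The calprotectin genes were the most abundant of the set per unit of length. S100a9 (ENSMUSG00000056071, chromosome 3, 90599939 to 90603028) stood at 58.4, 43.5 and 20.5 CPM in Cd5l-transgenic replicates 1, 2 and 3, against 16.5 and 21.4 CPM in 5xFAD replicates 1 and 3. S100a8, its partner in the heterodimer (ENSMUSG00000056054, chromosome 3, 90576285 to 90577342), stood at 34.5, 20.6 and 10.8 CPM with the transgene, against 8.77 and 12.4 CPM in 5xFAD. Again the first and second transgenic libraries were high and the third lay between the 5xFAD values. The log2 fold change was 1.10 for S100a9 (SE 0.45) and 1.05 for S100a8 (SE 0.51), the second of which was 0.57 without Cd5l-transgenic replicate 1.

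The pair kept a similar proportion whatever its level. S100a8 had 0.590, 0.473 and 0.526 reads per read of S100a9 in Cd5l-transgenic replicates 1, 2 and 3, against 0.532 and 0.579 in 5xFAD replicates 1 and 3. The group means differed by less than the spread between mice, at 0.530 ± 0.0587 (SD, n = 3) and 0.555 ± 0.0333 (SD, n = 2) for Cd5l-transgenic and 5xFAD mice. Divided by the length the table lists for each gene, S100a9 averaged 61.4 CPM per kilobase over the 5 libraries, S100a8 25.1, Ngp 20.2, Retnlg 10.5, Ltf 5.91, Camp 5.03, Lcn2 3.46, Mmp9 2.71 and Mmp8 1.62 CPM per kilobase. Of the 8 neighbouring pairs in this order, 7 stood in it in all 5 libraries. The other was Ltf above Camp, which held in 4.

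Centred on their own means, the 9 genes traced nearly 1 profile. The median centred log2 CPM was 0.98, 0.65 and -0.50 in Cd5l-transgenic replicates 1, 2 and 3, against -0.75 and -0.30 in 5xFAD replicates 1 and 3. Lcn2 and S100a9 lay closest to that median, with root mean square distances of 0.05 and 0.06 on the log2 scale. Camp lay farthest, at 0.31, because it was relatively high in Cd5l-transgenic replicate 3 (-0.06) and relatively low in 5xFAD replicate 3 (-0.85). The highest library exceeded the lowest by 2.63-fold for Mmp9 and by 4.09-fold for Retnlg, and by values between these for the other members.

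Of 14350 other genes that averaged 1 CPM or more, 6 came within 0.2 of the median profile, and these are named as the closest. They were Chil3 (0.13), a chitinase-like protein of neutrophils and monocytes, Cd177 (0.15), a surface protein of neutrophils, Emilin1 (0.18), an elastic fibre glycoprotein, E230001N04Rik (0.18), Hif3a (0.19), a hypoxia-inducible factor subunit, and Ddit4 (0.20), a stress-induced inhibitor of mTORC1. Chil3 stood at 12, 9.71 and 5.44 CPM in Cd5l-transgenic replicates 1, 2 and 3, against 3.59 and 5.22 CPM in 5xFAD replicates 1 and 3. Ddit4 stood at 56.0, 54.0 and 17.2 CPM with the transgene, against 17.1 and 28.6 CPM in 5xFAD. With 5 libraries and 2 high ones, such likeness is a description of these mice.

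**Figure D2:**
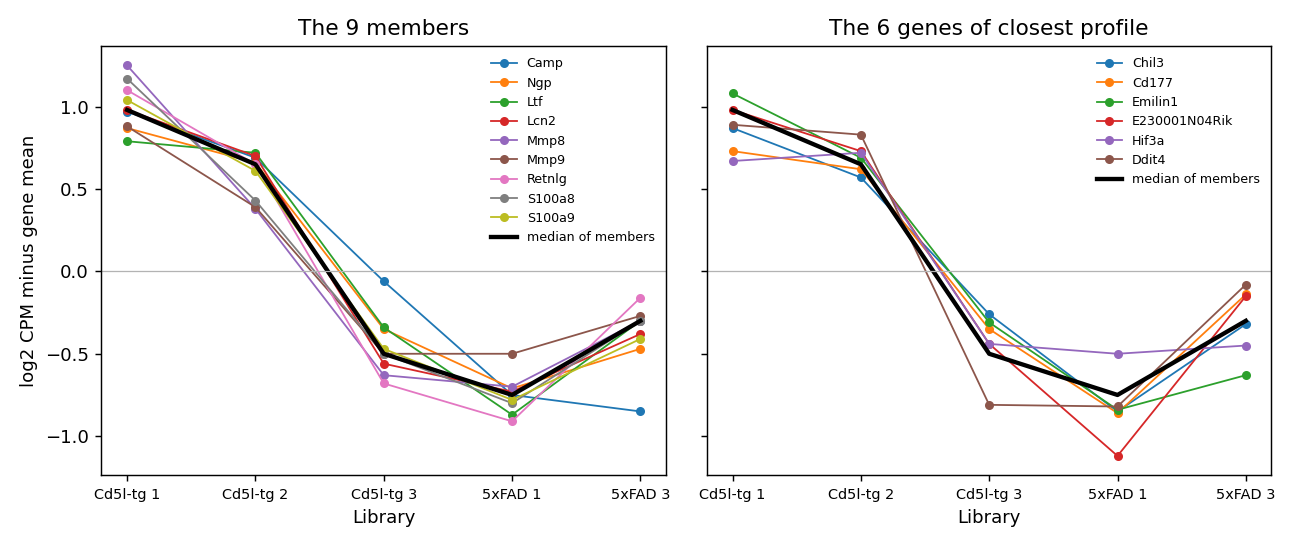
Log2 CPM minus the gene's mean over the 5 libraries, for the 9 members on the left and the 6 genes of closest profile on the right; the thick black line is the median of the members, and lines only join values of 1 gene. The first and second Cd5l-transgenic libraries are high in all of them, and Camp alone among the members is lowest in 5xFAD replicate 3.

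Because the members moved together between libraries, the sequence before their start sites is shown. RefSeq promoter windows (GRCm38.p6, 250 bases before to 50 after the start) were found for 8 of the 9; Mmp9 had no entry. C/EBP factors, among them C/EBP epsilon, are known regulators of secondary granule genes. Their half-site pair was searched as TTGCNNAA on both strands, which reads TTNNGCAA on the other. It was present in 6 of the 8 windows (Lcn2, S100a9, Mmp8, Ngp, Ltf and Retnlg), against 10.8% of all 32851 windows. A PU.1-type motif (GAGGAAG, either strand) was present in 3 of the 8 (Lcn2, S100a8 and Mmp8), against 13.6% of all windows. The letters TATAAA on either strand were also in 3 (S100a8, S100a9 and Mmp8), against 13.6%. No C/EBP match overlapped a match of the other motifs. A match is a description of letters and not a bound site. Stretches around each C/EBP match follow, 5′ to 3′ on the strand of the gene, with the match in capitals.
Ngp, 138 bases before the start, chr9:110419654-110419693: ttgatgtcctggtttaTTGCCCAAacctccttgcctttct
Ngp, 11 bases before the start, chr9:110419781-110419807: atgtcaccggcagttcTTGGGCAAggc
Ltf, 75 bases before the start, chr9:111019201-111019240: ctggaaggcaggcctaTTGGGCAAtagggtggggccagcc
Lcn2, 216 bases before the start, chr2:32387932-32387971: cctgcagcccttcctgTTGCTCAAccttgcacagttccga
Mmp8, 19 bases before the start, chr9:7558394-7558428: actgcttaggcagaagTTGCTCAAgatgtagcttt
Retnlg, 246 bases before the start, chr16:48872358-48872385: agctTTCTGCAAggcattccaggcacct
S100a9, 236 bases before the start, chr3:90695934-90695971: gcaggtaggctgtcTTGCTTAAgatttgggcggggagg

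Lcn2 and S100a9 lie on the minus strand, the other genes in these lines on the plus strand. Camp, the member with the largest fold change, had none of the 3 motifs in its window, and its 130 bases before the start (chr9:109849457-109849586, minus strand) are shown for comparison with the lines above.
Camp: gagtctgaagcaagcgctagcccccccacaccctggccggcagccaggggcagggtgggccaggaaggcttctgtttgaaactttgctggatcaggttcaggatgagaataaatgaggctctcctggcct

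The balance of secondary granule genes against those grouped here as later did not separate the genotypes. The mean log2 CPM of Camp, Ngp, Ltf and Lcn2 minus that of Mmp8, Mmp9 and Retnlg was 0.73, 1.12 and 1.18 in Cd5l-transgenic replicates 1, 2 and 3, against 0.84 and 0.64 in 5xFAD replicates 1 and 3. The groups overlapped, since Cd5l-transgenic replicate 1, the library highest in every member, lay between the 5xFAD libraries. The means were 1.01 ± 0.25 (SD, n = 3) and 0.74 ± 0.14 (SD, n = 2), a difference of 0.27 that was 0.41 without Cd5l-transgenic replicate 1 and 0.17 without 5xFAD replicate 3. Among pairs of a secondary and a later gene, Ngp against Retnlg overlapped between the groups. Ngp had 3.51, 4.18 and 5.26 reads per Retnlg read in Cd5l-transgenic replicates 1, 2 and 3, against 4.77 and 3.33 in 5xFAD replicates 1 and 3. Camp against Retnlg and Mmp8 against Ngp overlapped too. Mmp9 against Ngp did not, with relatively less of the later gene with the transgene. Mmp9 had 0.403, 0.330 and 0.358 reads per Ngp read in Cd5l-transgenic replicates 1, 2 and 3, against 0.464 and 0.460 in 5xFAD replicates 1 and 3. Within the secondary granule genes, the ratio of Camp to Ngp did not overlap either. Camp had 0.162, 0.154 and 0.183 reads per Ngp read with the transgene, against 0.145 and 0.114 in 5xFAD. These ratios were not tested.

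Reads of the main enzymes of the earliest granules were few and ordered differently between the mice. Mpo, myeloperoxidase, had 1, 0 and 57 counts in Cd5l-transgenic replicates 1, 2 and 3, against 26 and 15 counts in 5xFAD replicates 1 and 3. Elane, neutrophil elastase, had 0, 6 and 13 counts with the transgene, against 6 and 9 counts in 5xFAD. Both were thus highest in the transgenic library where the secondary granule genes were low. Mpo was the only one of this pair that passed the filter on low counts, with a log2 fold change of -0.13 (SE 1.70). Prtn3, proteinase 3, had 12, 4 and 14 counts with the transgene, against 7 and 18 counts in 5xFAD, and Ctsg, cathepsin G, had 1, 0 and 5 counts, against 4 and 0.

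Read together, these 4 azurophil genes had 14, 10 and 89 reads in Cd5l-transgenic replicates 1, 2 and 3, against 43 and 42 in 5xFAD replicates 1 and 3. Mpo gave 57 of the 89 reads in Cd5l-transgenic replicate 3. Of the reads on Mpo, Elane, Prtn3, Ctsg, Ngp and Camp, the azurophil genes took 0.945% (95% Wilson interval 0.564 to 1.58), 0.762% (0.415 to 1.40) and 11.5% (9.44 to 13.9) in Cd5l-transgenic replicates 1, 2 and 3. In 5xFAD replicates 1 and 3 they took 8.57% (6.42 to 11.3) and 6.20% (4.62 to 8.28). Cd5l-transgenic replicates 1 and 2 were below the other libraries beyond counting error. Ngp and Camp, by which the share is divided, were highest in these same libraries, so part of the gap follows from its definition. Replicate 3 had the highest share, with an interval that overlapped that of 5xFAD replicate 1, so the genotypes did not separate. The intervals cover counting error only, and this share was defined after the values of these genes had been seen. Proliferation markers were also highest in Cd5l-transgenic replicate 3, at 65.8, 58.2 and 91.2 CPM in Cd5l-transgenic replicates 1, 2 and 3, against 73.2 and 83.5 CPM in 5xFAD replicates 1 and 3. Their part in the azurophil share was not tested.

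**Figure D3:**
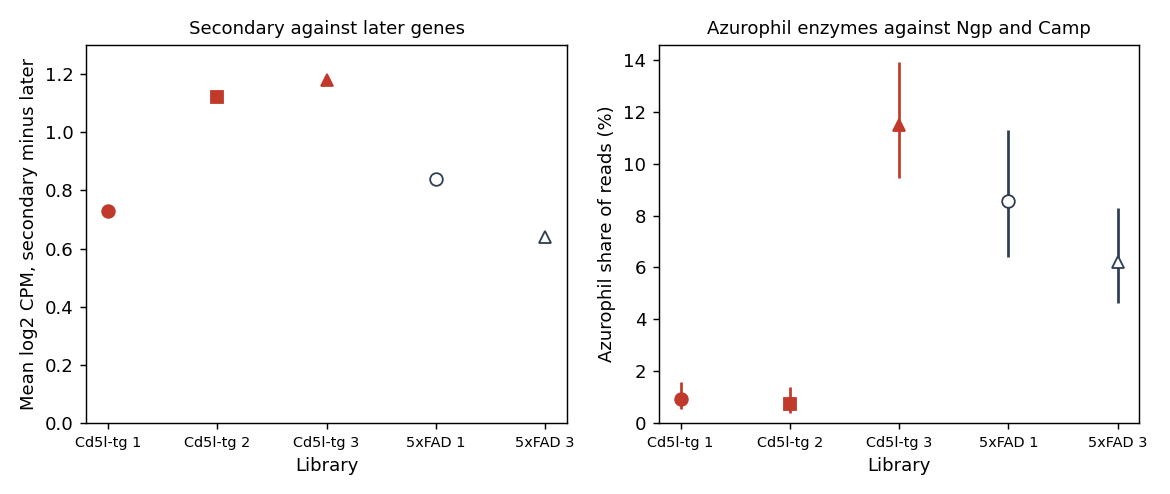
Left, mean log2 CPM of Camp, Ngp, Ltf and Lcn2 minus that of Mmp8, Mmp9 and Retnlg in each library; right, reads on Mpo, Elane, Prtn3 and Ctsg as a percentage of reads on these genes plus Ngp and Camp, with 95% Wilson intervals. Cd5l-transgenic replicates 1 and 2 have azurophil shares of 0.945% and 0.762%, against 6.20% to 11.5% in the other 3 libraries. Ngp and Camp, by which the share is divided, are highest in Cd5l-transgenic replicates 1 and 2.

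Of the 11 azurophil and progenitor genes, 6 passed the filter and edgeR called 0, with a median log2 fold change of 0.01. At an unadjusted p under 0.05 in edgeR, 1 was higher, beside 1.22% of all tested genes. That gene was Cebpe, the C/EBP epsilon factor named above, which had 21, 24 and 8 counts in Cd5l-transgenic replicates 1, 2 and 3, against 4 and 7 counts in 5xFAD replicates 1 and 3. Its groups did not overlap, as in 7.2% of tested genes in that direction, at a log2 fold change of 1.71 (SE 0.67, edgeR adjusted p = 0.999 at these low counts). Its relatives Cebpa, Cebpb and Cebpd, which act in many myeloid cells, had log2 fold changes of -0.12, -0.05 and -0.01 in that order. Fcnb, the ficolin B gene on the same list, was the other gene without overlap, at 0.323, 0.251 and 0.454 CPM with the transgene, against 0.135 and 0.141 CPM in 5xFAD (log2 fold change 1.29, SE 0.56, unadjusted p of 0.0596, edgeR adjusted p = 0.999). Unlike the members, it was highest in Cd5l-transgenic replicate 3. Myb, a factor of progenitor cells, stood at 1.68, 1.41 and 1.60 CPM with the transgene, against 1.49 and 5.02 CPM in 5xFAD, so it was high in 5xFAD replicate 3 alone.

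Most other granule genes lay above 0, and none passed the test. Of the 18 in the list, 16 passed the filter and 14 lay above 0, beside 42.9% of all tested genes. The edgeR test called 0, and the median log2 fold change was 0.44. At an unadjusted p under 0.05 in edgeR, 2 were higher, beside 1.22% of all tested genes. Cd177 stood at 5.01, 4.64 and 2.33 CPM in Cd5l-transgenic replicates 1, 2 and 3, against 1.63 and 2.71 CPM in 5xFAD replicates 1 and 3 (log2 fold change 0.88, SE 0.44). The log2 fold change of Itgb2l, an integrin subunit of neutrophils, was 1.21 (SE 0.62), and that of Slpi, an inhibitor of neutrophil elastase, 0.89 (SE 0.54). Olfm4, which marks a subset of neutrophils, stood at 0.00 (SE 0.13). The most abundant genes of the list did not follow the members: lysozyme (Lyz2) and the NADPH oxidase subunit Cyba stood at -0.16 (SE 0.14 each), and Cybb, the partner of Cyba, at 0.27 (SE 0.16). The part of microglia in the levels of these abundant genes was not tested.

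Ly6g and Cxcr2, which mark mature neutrophils, were scarce, while Csf3r and Il1b of the same list were abundant and had fold changes below 0. The cells were mainly microglia by their markers, and the part of microglia in the levels of Csf3r and Il1b was not tested. Of the 22 genes in that list, 20 were in the table and 16 passed the filter. Of these 13 lay above 0, beside 42.9% of all tested genes. The edgeR test called 0, with 0 at an unadjusted p under 0.05 and a median log2 fold change of 0.41. Ly6g, the surface antigen that defines mouse neutrophils, had 22, 24 and 4 counts in Cd5l-transgenic replicates 1, 2 and 3, against 6 and 12 counts in 5xFAD replicates 1 and 3. Cxcr2, the chemokine receptor that draws neutrophils from the marrow, had 82, 53 and 14 counts with the transgene, against 32 and 44 counts in 5xFAD. Both had their lowest value in Cd5l-transgenic replicate 3 and their highest values in replicates 1 and 2. Their log2 fold changes were 0.94 for Ly6g (SE 0.82) and 0.44 for Cxcr2 (SE 0.73). Csf3r, the receptor of granulocyte colony-stimulating factor, was abundant in all libraries at 813 to 1060 CPM with the transgene and 1040 to 1070 CPM in 5xFAD, with its lowest value where the members were highest. Il1b and Hdc, which makes histamine, also lay below 0, with log2 fold changes of -0.61 (SE 0.34) and -0.75 (SE 0.56).

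**Figure D4:**
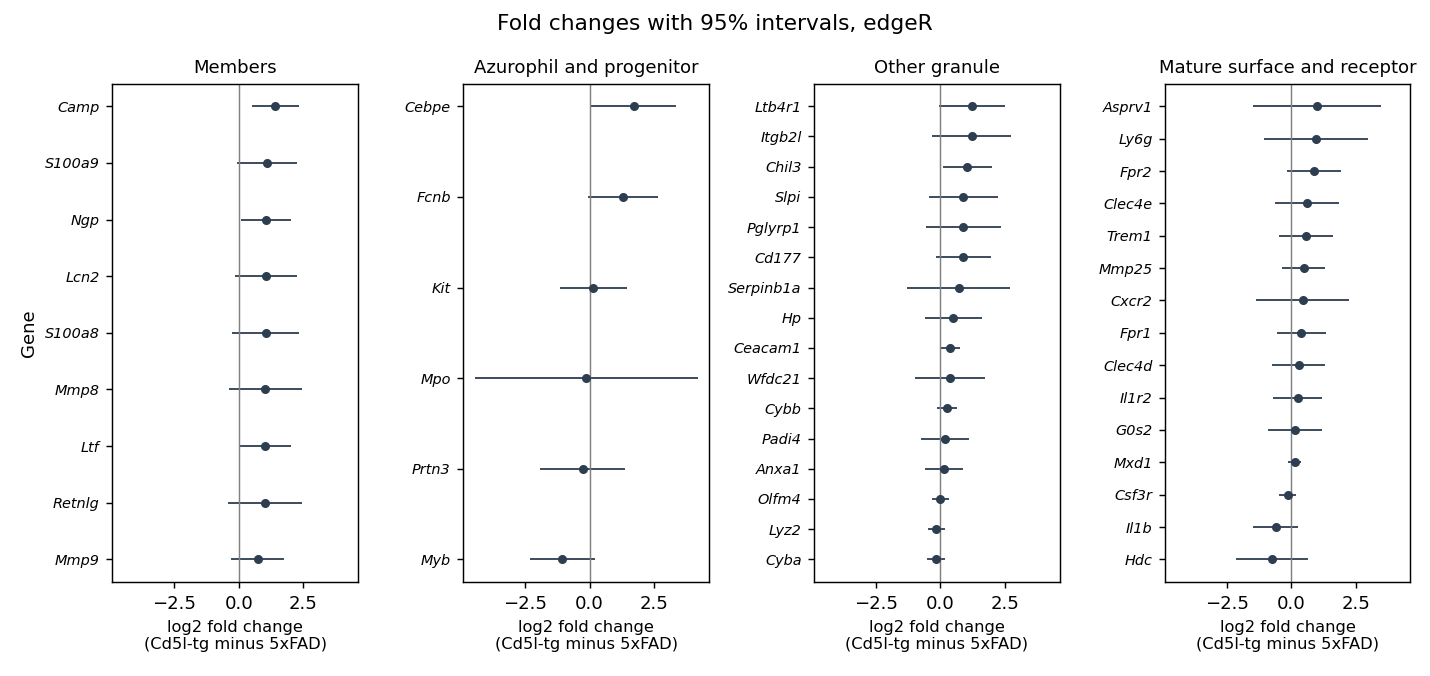
Log2 fold changes (Cd5l-transgenic minus 5xFAD) with 95% intervals from edgeR for the 9 members, 6 azurophil and progenitor genes, 16 other granule genes and 15 of the 16 mature surface and receptor genes that passed the filter. All 9 members lie above 0, from 0.74 to 1.42, and Mpo has the widest interval.

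No gene for a protein that binds or restrains the products of these genes passed the test. Of 8 receptor genes for calprotectin and lipocalin, edgeR called 0 (0 at an unadjusted p under 0.05), with a median log2 fold change of 0.04. Tlr4, which calprotectin engages, stood at 0.04 (SE 0.15), its co-receptor Cd14 at -0.20 (SE 0.16) and Slc22a17, a lipocalin 2 receptor, at -0.46 (SE 0.21). Of 6 metalloproteinase inhibitor genes 5 passed the filter and 0 were called (0 at an unadjusted p under 0.05). Timp1, which binds Mmp9, had at most 0.113 CPM in any library, whereas Timp2 stood at -0.22 on the log2 scale (SE 0.14) and the membrane-anchored inhibitor Reck at 0.84 (SE 0.35). Of 8 other S100 genes 7 passed the filter, with a median log2 fold change of 0.17, 0 called by edgeR and 0 at an unadjusted p under 0.05.

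No gene for a ligand that attracts neutrophils passed the test, and several were barely measured. Cxcl2, a CXCR2 ligand, stood at 32.4, 24.1 and 29.8 CPM in Cd5l-transgenic replicates 1, 2 and 3, against 42.3 and 35.6 CPM in 5xFAD replicates 1 and 3. Every transgenic library was below both 5xFAD libraries, as in 8.68% of tested genes, with a log2 fold change of -0.44 (SE 0.15, unadjusted p of 0.0254, edgeR adjusted p = 0.999). Cxcl1, another such ligand, stood at 2.58, 1.13 and 3.18 CPM with the transgene, against 3.72 and 2.06 CPM in 5xFAD. Csf3, the granulocyte growth factor, had at most 0.0282 CPM in any library, under the limit of 3 counts. Of the 11 genes in this list 4 passed the filter and edgeR called 0, with 1 lower at an unadjusted p under 0.05, beside 1.46% of all tested genes.

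Monocyte and erythroid marker sums of all transgenic mice also lay above those of both 5xFAD mice, in a different order, whereas lymphocyte and platelet sums overlapped between the groups. The 10 monocyte markers summed to 226, 315.9 and 198.9 CPM in Cd5l-transgenic replicates 1, 2 and 3, against 163.3 and 160.9 CPM in 5xFAD replicates 1 and 3. Most of this was Fn1, at 156, 267 and 145 CPM with the transgene, against 116 and 116 CPM in 5xFAD. No monocyte marker was at 0 in any library, and Chil3 is also on a neutrophil list. Of the 10, 9 passed the filter, 8 lay above 0 (42.9% of all tested genes) and 4 were higher in every transgenic library (7.2% of all tested genes). The edgeR test called 0, with 2 higher at an unadjusted p under 0.05, beside 1.22% of all tested genes. Ly6c2, the antigen of inflammatory monocytes, was high in 1 library, at 8.79, 2.13 and 1.63 CPM with the transgene, against 1.39 and 2.20 CPM in 5xFAD. The erythroid markers summed to 7.46, 21.3 and 8.80 CPM in Cd5l-transgenic replicates 1, 2 and 3, against 2.44 and 1.52 CPM in 5xFAD replicates 1 and 3. All 5 erythroid genes that passed the filter had higher values in every transgenic library, beside 7.2% of all tested genes. Of these edgeR called 0, with 5 at an unadjusted p under 0.05, beside 1.22% of all tested genes in that direction. Lymphocyte markers summed to 379.1, 336.5 and 369.9 CPM in Cd5l-transgenic replicates 1, 2 and 3, against 392.6 and 343.5 CPM in 5xFAD replicates 1 and 3, and platelet markers to 24.2, 20.5 and 23.3 CPM, against 20.9 and 20.1 CPM in 5xFAD. Each sum mainly followed 1 gene. Ighm stood at 366, 325 and 353 CPM with the transgene, against 380 and 331 CPM in 5xFAD. Pf4 stood at 13.5, 10.9 and 14.2 CPM, against 11.8 and 10.3 CPM, and was also listed as a marker of border macrophages. These sums therefore say little about the number of lymphocytes or platelets.

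The order of the mice therefore differed by list. The members were highest in Cd5l-transgenic replicate 1, while the monocyte, erythroid and endothelial sums were highest in replicate 2, and replicate 3 was above both 5xFAD libraries for these 3 lists but not for the member sum. The monocyte sum was highest in replicate 2 through Fn1, as no other gene of that list was highest there. The endothelial sum was 653.5, 1173 and 660.7 CPM in Cd5l-transgenic replicates 1, 2 and 3, against 603.9 and 573.8 CPM in 5xFAD replicates 1 and 3. The oligodendrocyte sum was likewise high in the first and second transgenic libraries, at 1076, 4236 and 365.2 CPM, against 366.8 and 338.6 CPM in 5xFAD. Without Cd5l-transgenic replicate 2, the ratio of the member sums (Cd5l-transgenic over 5xFAD) was 1.99, against 2.07 with all libraries. It was 1.66 without Cd5l-transgenic replicate 1 and 2.57 without replicate 3. The part of blood or of other cells in the level of the members was not tested.

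**Figure D5:**
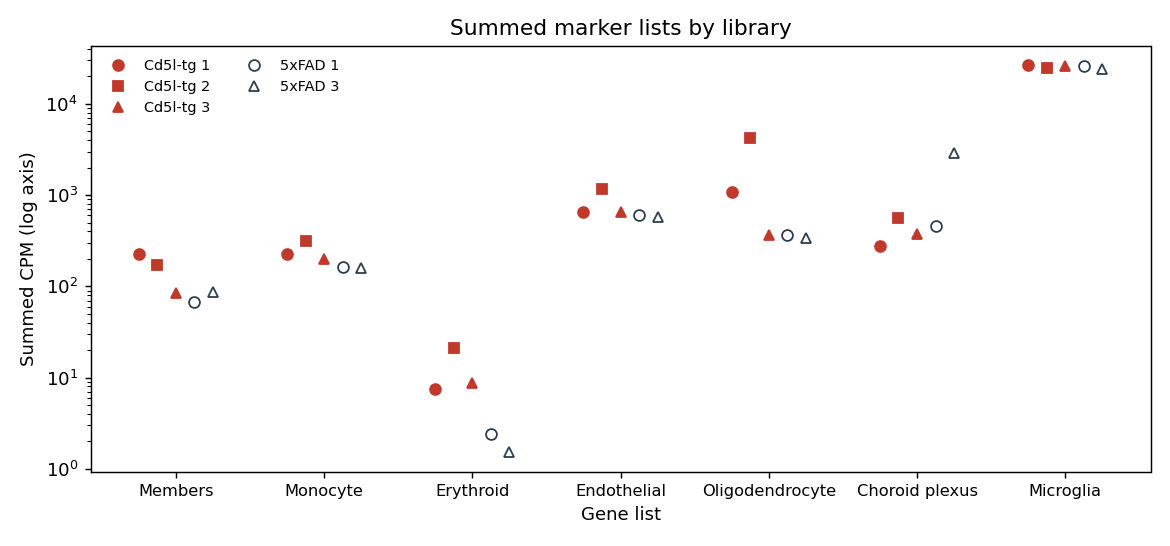
Summed CPM of the 9 members and of 6 marker lists in each library, on a log axis; filled red symbols are Cd5l-transgenic mice and open dark symbols are 5xFAD mice. The member sum is highest in Cd5l-transgenic replicate 1 (224 CPM), the monocyte, erythroid, endothelial and oligodendrocyte sums are highest in replicate 2, and the microglial sum is nearly level. Most of the monocyte sum is Fn1.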

How the data were processed

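The authors deposited raw whole-number counts by Ensembl gene in 1 table with a column per mouse. Reads were placed on GRCm39 (mm39), per the submitters' processing notes. Aligner, counting tool, annotation release and strand setting: not given in the sources used here. Antisense or overlapping genes may therefore share reads with a member. Gene lengths are those of the same table. Columns were matched to libraries by name; that of Cd5l-transgenic replicate 3 had its letter pairs in the opposite order. The labels name both CD11b-positive cells and brain tissue as the source of RNA.

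Genes were filtered with filterByExpr, scaled with TMM factors (0.952 to 1.02) and tested over 17724 genes with the quasi-likelihood test of edgeR 4.0.16 (robust settings, genotype only, R 4.3.3), with Benjamini-Hochberg adjustment. All 9 members passed the filter. Standard errors are the fold change divided by the square root of F. Log2 CPM used a prior count of 2. Alternatives used DESeq2 1.42.0 and limma 3.58.1. The procedure was run on counts simulated from its own fitted model, and the outcome of that run is not reported here. Limits under 3 counts cover counting error only.

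The members, lists and naming rule were chosen with earlier results of these data known. The rule named all members, genes of the neutrophil, receptor, inhibitor and ligand lists, of other lists the 2 most abundant genes, and the 6 genes of closest profile. Genes named outside it (Ly6c2, Cebpb, Cebpd) were chosen after their values were seen, and values of some listed genes are not reported here. The motifs were chosen with the list of members known. Groups of 2 and 3 libraries were not screened for outlying samples.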

Additional observations from a re-analysis of the deposited data

How the results depend on the processing

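All 126 values of the 9 members under the alternatives kept their sign and none passed at an adjusted p of 0.05; the lowest adjusted p was 0.36 (Camp in the DESeq2 Wald test). Since no member passed with all libraries either, this says nothing about stability of a call. Leaving out 1 library gave log2 fold changes of 1.19 to 1.69 for Camp, 0.83 to 1.38 for Ngp, 0.39 to 1.06 for Mmp9 and 0.45 to 1.40 for Mmp8. Without Cd5l-transgenic replicate 3, the lowest transgenic library for all 9 members, no member passed either (lowest edgeR adjusted p = 0.761). Over all genes, DESeq2 called 9 higher and 2 lower, edgeR without a low-count filter 0 and 1, and edgeR with 1 library left out 0 to 1 higher and 0 to 9 lower. Without 5xFAD replicate 3 and Cd5l-transgenic replicate 2 together, chosen after seeing the data, edgeR called 36 higher and 58 lower, 0 of them members; the cause was not tested. Where 1 library of 5xFAD remains, it is assumed to vary like the other group. With the replicate number as a block, Camp stood at 1.28 and Ngp at 0.86, and 0 genes were called. The numbers 1 and 3 are shared between the groups, and the labels do not pair them. Same-numbered libraries deviated from their group means with correlations of 0.13 and -0.24 across genes. With only 2 libraries of 5xFAD, their deviations mirror each other, so these correlations cannot show whether the mice were paired. At 58 counts or more per library, depth limited the members less than the spread between mice, while Mpo, Elane, Ctsg, Ly6g and Cebpe rested on few counts.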

Other observations

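Granule genes of eosinophils, which share the marrow origin of neutrophils, had their highest values in 5xFAD replicate 3. Epx, eosinophil peroxidase, stood at 0.0969, 0.125 and 0.484 CPM in Cd5l-transgenic replicates 1, 2 and 3, against 0.305 and 0.930 CPM in 5xFAD replicates 1 and 3. Prg2, the major basic protein, stood at 1.20, 0.125 and 2.09 CPM with the transgene, against 1.32 and 3.35 CPM in 5xFAD. Both were lowest in Cd5l-transgenic replicates 1 and 2, the libraries highest in the secondary granule genes of neutrophils. Their log2 fold changes were -1.38 for Epx and -1.04 for Prg2, with unadjusted p of 0.149 and 0.34 in edgeR. They were chosen after their values were seen.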
